A study of Rattus norvegicus with 8 samples.

Results

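Rab GTPases are small proteins that switch between a GTP-bound form, held on a membrane, and a GDP-bound form, and each directs vesicles at particular steps between the endoplasmic reticulum, Golgi, endosomes, lysosomes and the cell surface. Guanine nucleotide exchange factors (GEFs) load them with GTP, GTPase-activating proteins (GAPs) end the active state, GDP dissociation inhibitors (GDIs) take the inactive form off membranes, and effectors bind the active form. In neurons, Rab3 proteins sit on synaptic vesicles and bind the RIM proteins of the release site, while Rab5, Rab4 and Rab11 proteins carry receptors through endosomes and back to the surface.

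The Rab genes were the array features, control spots aside, whose gene name was Rab followed by a number and at most 1 letter. This rule matched 75 probes of 47 gene names among 41012 probes. A probe was kept where it was well above background on at least 4 of 8 arrays, which left 72 Rab probes and 46 gene names among 27152 kept probes. Rab25, known mainly from epithelia, was not kept: its probe was well above background on 0 of 8 arrays. Where a gene had several kept probes the brightest stood for it. Rab2l matched by its letters, but RefSeq names that gene Ralgdsl2, which is not a Rab GTPase, so 45 of the 46 are Rab genes by their RefSeq names. The names Rab1, Rab2, Rab7, Rab9 and Rab39 on the array stand for Rab1a, Rab2a, Rab7a, Rab9a and Rab39a in RefSeq. A further 4 Rab genes were on the array under other names (Rab17, Rab19, Rab29 and Rab32) and lay outside the rule. Of these, 2 were measured, with mean differences of 0.25 (SE 0.50) for Rab19 and 0.16 (SE 0.12) for Rab29 on the log2 scale.

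The RNA came from male Sprague-Dawley rats, with no genetic alteration named in the labels, and from 1 brain region, the medial thalamus. The rats were conscious during the sessions. The 4 occlusion animals had their trachea occluded for 3 to 10 breaths at a time, with about 30 s of recovery between trials, in daily sessions over 10 days. The 4 control animals were surgical controls with daily sessions and no occlusions, and in both groups the animals were put to death within 10 min of the final session. Ages are not given in the sources used here. Each animal gave 1 single-colour Agilent array, and the comparison asks how repeated conscious tracheal occlusion relates to RNA levels in this tissue. Levels below are log2 signals relative to the 75th percentile of their own array, so a level of 0 equals that percentile, and levels are compared between arrays for a probe. Signals of different probes were set against each other only to pick the brightest probe of a gene.

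The arrays had 65 to 71.6% of spots well above background and 1.05 to 1.55% saturated, and the number of arrays limits the precision of every value below. The 8 arrays lay on 2 slides, with 2 arrays of each group on each, and the first principal component (37.7% of the variance) separated the slides. Within each slide it also separated the groups. Occlusion arrays lay at -50.5 and -49.9 against -18.2 and -30.7 for controls on slide 1, and at 14.9 and 20.4 against 52.8 and 61.3 on slide 2. Control 3 stood apart from the other arrays on the second component. Markers of other cells also differed between arrays. The summed level of 7 habenula markers was 1.71 on occlusion 3, 2.40 on control 4 and 2.60 on control 3, against 3.71 to 5.29 on the other 5 arrays. Markers of thalamic relay neurons were measured for 12 of 13 genes (Tcf7l2 had no probe of that name), of which 11 had a higher mean on the occlusion arrays. Markers of inhibitory neurons were measured for 11 of 11 genes, of which 10 had a lower mean there. Of 12 oligodendrocyte markers 10 were also lower, as were 7 of 8 measured choroid plexus and ependymal markers (10 listed). The remaining choroid plexus or ependymal marker had the largest difference of its list, 1.83, against -0.91 for the lowest. The summed level of that list overlapped, at 3.85 to 4.32 on occlusion and 3.30 to 4.45 on control arrays. Markers of hippocampus and cortex were measured for 4 of 10 genes, 2 higher and 2 lower. Their summed level did not overlap between groups, at -0.76 to -0.37 on occlusion and -0.21 to 1.49 on control arrays. Emx2 had a difference of -2.77 and Prox1 of 1.55, both without overlap. In a bulk sample, fewer cells of a type and less RNA per cell cannot be told apart. The part of these markers in the results was not tested, and differences without the 3 arrays low in habenula markers are given for the main genes. No fit left out arrays by the other marker lists.

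The probe sequences were also searched for a motif. Rab proteins share a short stretch that recognises the guanine base of the nucleotide. Its 15-base coding motif, searched on the sense strand of every 60-base probe, was found in 5 of 75 Rab probes (6.67%) and in 17 of all 41012 probes (0.0415%). On the antisense strand it was found in 6 of 41012 probes and 0 Rab probes. The 5 Rab probes are shown because they carry this motif, printed in capitals. Those of Rab14 and Rab22a stand for their genes below. Those of Rab6a, Rab2b and Rab15 are not the brightest of their genes, so the main values of these genes come from other probes.
Rab6a: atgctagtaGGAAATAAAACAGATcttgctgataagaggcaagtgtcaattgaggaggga
Rab2b: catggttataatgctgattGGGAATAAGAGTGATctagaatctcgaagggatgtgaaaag
Rab14: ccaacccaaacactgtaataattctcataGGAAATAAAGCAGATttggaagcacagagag
Rab15: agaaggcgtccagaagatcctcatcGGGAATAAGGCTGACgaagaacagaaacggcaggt
Rab22a: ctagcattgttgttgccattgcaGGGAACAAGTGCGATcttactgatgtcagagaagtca
Within the motif, 8 of 15 positions were identical in the 5 probes. The probes were picked by this motif, so their likeness within it follows from the search. A match is a description of the letters. The probe positions in the files are on the rat build rn3: chr1:158146691-158149255 for Rab6a, chr15:27727632-27732357 for Rab2b, chr3:14143651-14146676 for Rab14, chr6:99386329-99386388 for Rab15 and chr3:164499974-164500556 for Rab22a. For 25 of the 75 Rab probes the span on the genome was longer than the 60 bases of the probe, so these cross at least 1 intron. No annotation of rn3 was used, and exons and untranslated regions are not assigned here.

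No Rab gene passed the test at this sample size. With limma and Benjamini-Hochberg adjustment over the 27152 kept probes, 0 probes (0%) had an adjusted p under 0.05, and the lowest adjusted p was 0.403, for Rab genes and for all probes. At an unadjusted p under 0.05, 4 Rab genes had a higher and 1 a lower mean on the occlusion arrays, which is 10.9% of 46, beside 6.48% higher and 4.61% lower, 11.1% in all, of the kept probes. The share of Rab genes is therefore near the background. Of the 46, 25 had a higher and 21 a lower mean, 54.3% higher beside 53.6% of all kept probes, and the median log2 difference was 0.02 for both. The 46 include Rab6b and Rab15, whose brightest probes were saturated on all 8 arrays and give no ratio. Of the other 44, 23 had a higher and 21 a lower mean, and in 33 the difference was smaller than 0.25 in size. The values of the groups did not overlap for 8 Rab genes (17.4%), 5 higher and 3 lower, beside 3.9% higher, 2.82% lower and 6.71% in all of the kept probes. Among the 42 Rab genes measured on all 8 arrays these were 6 (14.3%). The Rab shares count 1 probe per gene, while the background counts every kept probe. Over the 72 kept Rab probes, the groups did not overlap for 6 higher and 4 lower. The median within-group SD was 0.18 for the Rab genes and 0.24 for all kept probes, and several of the gaps between groups were narrow, as given below.

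**Figure D1:**
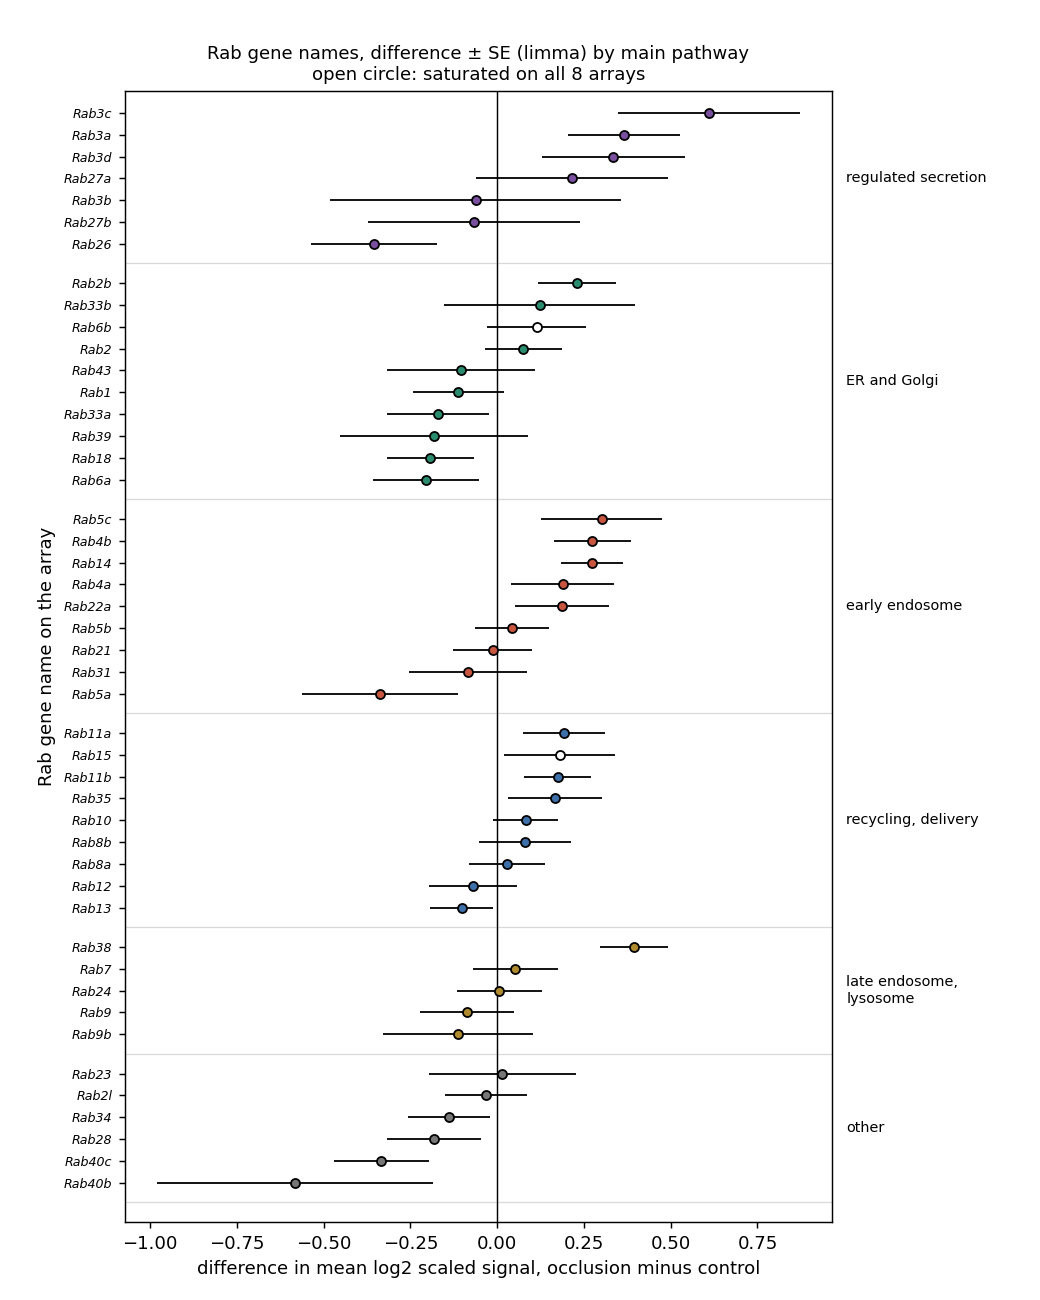
Mean log2 difference, occlusion minus control, with its standard error from limma, for the 46 measured Rab gene names, ordered within their main pathway. Values run from -0.58 for Rab40b to 0.61 for Rab3c, 33 of the 44 unsaturated genes lie within 0.25 of 0, and the open circles for Rab6b and Rab15 mark probes saturated on all 8 arrays.

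The Rab genes of regulated secretion lay on both sides of 0. Of 7 measured, 4 had a higher and 3 a lower mean on the occlusion arrays, with a median difference of 0.22. Rab3a, the main Rab of synaptic vesicles, had levels of 3.40, 3.12, 3.27 and 3.22 on the occlusion arrays and 3.03, 2.83, 2.50 and 3.20 on the control arrays. Control 3 was the lowest array and control 4 lay within the occlusion range, so the groups overlapped. The difference was 0.36 (SE 0.16, a 1.29-fold ratio, limma adjusted p 0.453), 0.23 without control 3 and 0.32 without the arrays low in habenula markers.

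Rab3c, a closely related vesicle Rab, had the largest difference among the probes that stand for a gene. Its levels were 1.06, 0.999, 0.56 and 0.56 on the occlusion arrays and 0.33, 0.06, -0.45 and 0.79 on the control arrays. Control 4 again lay inside the occlusion range and control 3 was again the lowest. The difference was 0.61 (SE 0.26, 1.53-fold, limma adjusted p 0.444). It was 0.25 within slide 1 and 0.97 within slide 2, 0.40 without control 3, and 0.68 without the arrays low in habenula markers. The relay neuron markers had the same extremes among the controls, with summed levels of 6.10 on control 3 and 6.71 on control 4, and 6.54 to 7.06 on the occlusion arrays. The brightest genes in this sum, Calb2, Slc17a6 and Prkcd, were saturated on 8, 6 and 4 of 8 arrays, so the sum is capped in part.

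Rab3d, known from secretory granules of gland cells, had levels of -0.89, -1.23, -0.35 and -0.53 on the occlusion arrays and -1.08, -1.33, -0.81 and -1.12 on the control arrays. The groups overlapped, and the difference of 0.33 (SE 0.21) was 0.20 without occlusion 3. A second probe gave 0.02.

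Rab3b differed more within the groups than between them. Levels were 1.07, 0.72, 2.01 and 1.52 on the occlusion arrays and 0.997, 0.56, 2.37 and 1.64 on the control arrays, and the difference was -0.06 (SE 0.42). Its within-group SD exceeded that of 90.7% of the kept probes. A second probe followed the same order of arrays within each group, with -0.25, -0.64, 0.65 and 0.09 against -0.35, -0.94, 1.02 and 0.38, and a difference of -0.07. The highest arrays, control 3, occlusion 3 and control 4, were the 3 with the lowest habenula marker sums. Without them the difference was 0.32, and within slides it was 0.22 and -0.34.

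Rab26, which acts on secretory granules and on vesicles routed to autophagy, was the secretory Rab with the lowest difference between groups. Its levels were 3.51, 3.31, 4.07 and 3.51 on the occlusion arrays and 3.70, 3.98, 4.16 and 3.99 on the control arrays. Occlusion 3 lay among the controls and the other 3 occlusion arrays lay below all controls. The difference was -0.36 (SE 0.18, 1.28-fold lower, limma adjusted p 0.494), -0.05 within slide 1 and -0.66 within slide 2. The sum of the inhibitory neuron markers had a like order, with 3.08, 2.76 and 3.25 on occlusion 1, 2 and 4, 5.53 on occlusion 3, and 4.59 to 6.10 on the controls. On occlusion 3 this sum was led by Sst, at 4.99, and the single markers differed. Gad1 (-0.90), Pvalb (-0.31) and Spp1 (-3.74) lay below all controls on that array, and the others lay within or above the control range. Rab27a and Rab27b, which dock granules and lysosome-related organelles, had differences of 0.22 (SE 0.28) and -0.07 (SE 0.31). Their levels spread widely, from -3.91 to -2.79 on occlusion and -4.14 to -3.38 on control arrays for Rab27a, and from -1.46 to -0.46 and -1.69 to -0.41 for Rab27b. Without the arrays low in habenula markers they were -0.04 and -0.58.

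**Figure D2:**
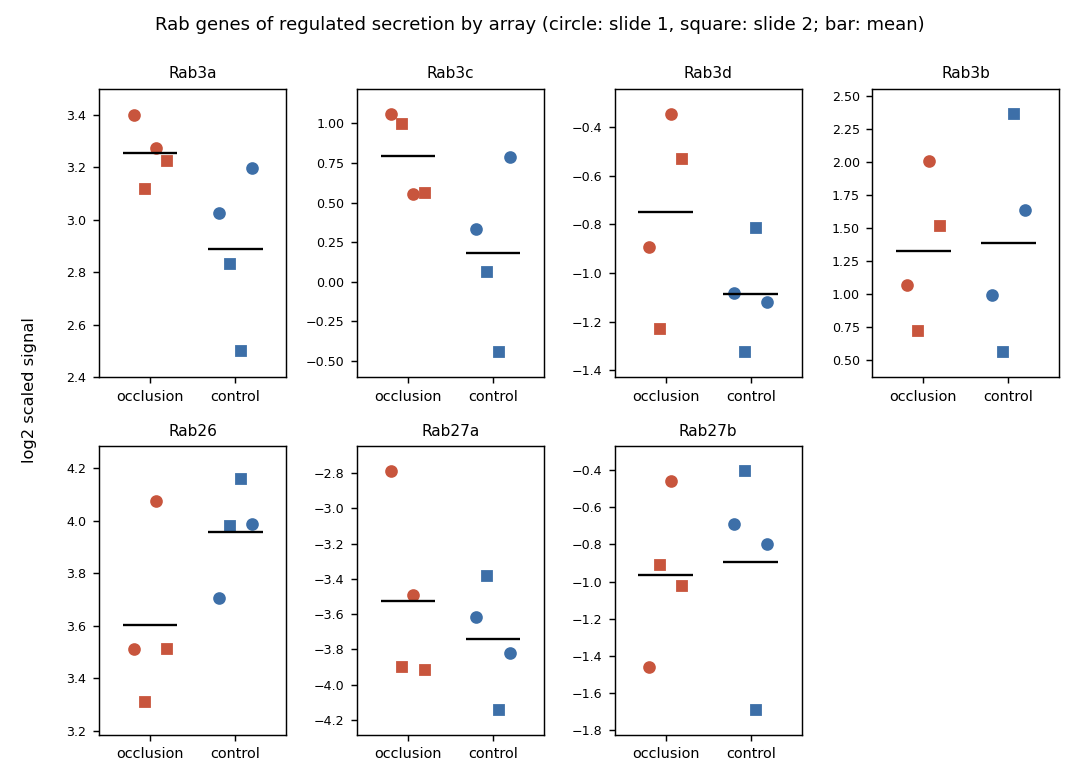
Level of each of the 7 measured Rab genes of regulated secretion on every array, in log2 units relative to the array's 75th percentile, with bars at group means and symbols by slide. Rab3a and Rab3c have control 3 lowest and control 4 within the occlusion range, Rab3b spreads from 0.56 to 2.37 among the controls, and Rab26 has occlusion 3 among the controls. The scale of the vertical axis differs between panels.

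Of the 10 genes of the endoplasmic reticulum and Golgi route, 4 had a higher and 6 a lower mean, with a median of -0.11. The 4 include Rab6b by its saturated probe, which gives no ratio. Rab6b, the Golgi Rab isoform known to be enriched in neurons, carried the largest difference of any kept Rab probe, but not in its brightest probe. The brightest probe was saturated on all 8 arrays, so its signal is a ceiling and gives no ratio. Its start lay 3730 and 3470 bases from those of 2 unsaturated probes for the same gene name. The first 30 bases of each are printed to tell the 3 probes apart, since they differ in what they can measure.
Rab6b probe 1, saturated: cagaaggcacagtggccatattgactttac
Rab6b probe 2: taaacgactattttttggtttggttgtaat
Rab6b probe 3: cagcccagaaaattaaagcaattaactgaa
Their rn3 positions were chr8:108211373-108211432, chr8:108207643-108207702 and chr8:108207903-108207962. Probe 2 read 3.15, 3.32, 3.23 and 2.73 on the occlusion arrays and 2.44, 2.28, 1.96 and 2.70 on the control arrays. The groups did not overlap, although occlusion 4 and control 4 were only 0.02 apart. The difference was 0.76 (SE 0.19, 1.69-fold, limma adjusted p 0.403), 0.62 and 0.90 within the slides, 0.63 without control 3 and 0.71 without the arrays low in habenula markers. Probe 3 read -2.48, -2.47, -3.06 and -2.26 against -3.21, -3.48, -3.23 and -2.84, with overlapping groups. Its difference was 0.63 (SE 0.20, limma adjusted p 0.403), and 0.26 and 0.99 within the slides. The files do not say whether the 3 detect the same transcript.

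Rab15, an endosomal Rab known from brain, had the same limit. Its brightest probe was saturated on all 8 arrays. The unsaturated probe, the one shown above with the nucleotide motif, read -1.53, -1.38, -1.15 and -1.36 on the occlusion arrays and -1.64, -2.10, -1.64 and -1.39 on the control arrays. The groups overlapped, with control 2 lowest. The difference was 0.34 (SE 0.16, limma adjusted p 0.483) and 0.20 without control 2.

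**Figure D3:**
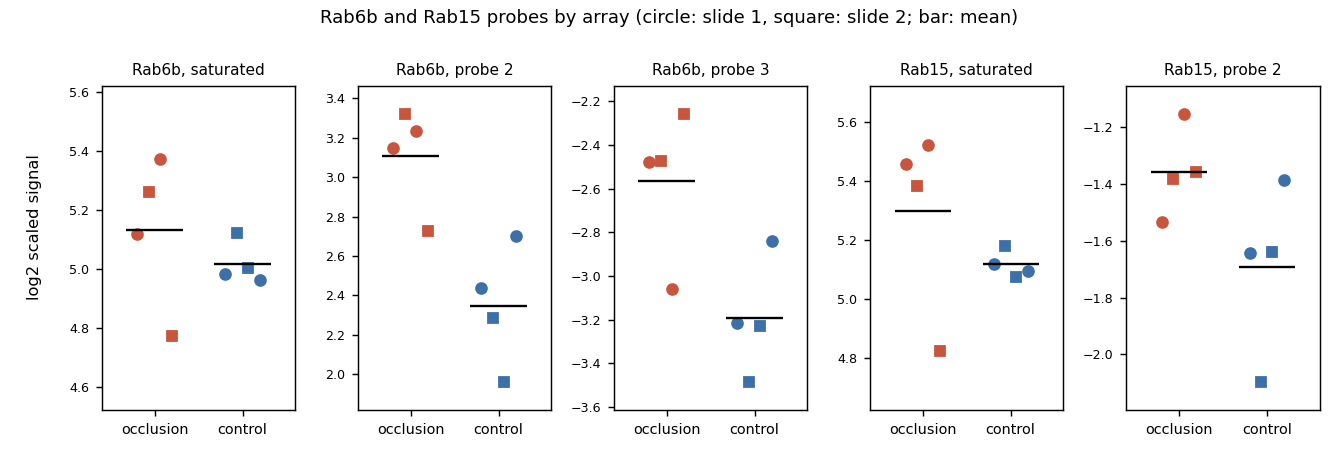
Levels of the 3 Rab6b and 2 Rab15 probes on every array, in log2 units relative to the array's 75th percentile, with bars at group means and symbols by slide. The saturated probes only show the scanner ceiling after scaling, and Rab6b probe 2 separates the groups by 0.02.

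The other genes of this route stayed close to 0 or were dim. Rab2b, which acts at the Golgi, had the highest value among those not saturated, with levels of 3.10, 2.89, 3.02 and 2.92 on the occlusion arrays and 2.81, 2.73, 2.55 and 2.91 on the control arrays, a difference of 0.23 (SE 0.11). Its 4 kept probes gave -0.01 to 0.23. Rab18, linked to lipid droplets and the endoplasmic reticulum, read -0.22, -0.43, -0.62 and -0.23 against -0.21, -0.33, -0.12 and -0.08, a difference of -0.19 (SE 0.13). It was -0.11 without occlusion 3 and -0.03 without the arrays low in habenula markers. Rab6a, the widely expressed partner of Rab6b, had the lowest value at -0.21 (SE 0.15), while its other probe gave 0.05. Rab1 and Rab2, which serve traffic between the endoplasmic reticulum and Golgi, had differences of -0.11 (SE 0.13) and 0.08 (SE 0.11). The Golgi Rabs Rab33a and Rab33b had -0.17 (SE 0.15) and 0.12 (SE 0.28), Rab43 had -0.10 (SE 0.21), and Rab39, well above background on 5 of 8 arrays, had -0.18 (SE 0.27).

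Of the 9 early endosome genes, 6 had a higher mean, with a median difference of 0.19, beside 53.6% higher and a median of 0.02 over all kept probes. In 3 of them all occlusion values lay above the controls, beside 3.9% of all kept probes, and for Rab4b and Rab5c these gaps were 0.0017 and 0.0021. Rab14, which works between early endosomes and the Golgi, had levels of 0.43, 0.40, 0.43 and 0.51 on the occlusion arrays and 0.13, 0.21, 0.22 and 0.11 on the control arrays. The groups were 0.17 apart, wider than either group's own range. The difference was 0.27 (SE 0.09, 1.21-fold, limma adjusted p 0.403), 0.31 and 0.24 within the slides and 0.27 without the arrays low in habenula markers. A second Rab14 probe gave 0.19 (SE 0.10) with overlapping groups.

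Rab4b, of the fast recycling route from early endosomes, had levels of 0.76, 0.51, 0.64 and 0.74 on the occlusion arrays and 0.50, 0.32, 0.25 and 0.47 on the control arrays. The groups lay only 0.0017 apart. The difference was 0.27 (SE 0.11, limma adjusted p 0.430), 0.21 and 0.34 within the slides. Its relative Rab4a had 0.19 (SE 0.15) with overlapping groups.

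The 3 Rab5 genes, whose proteins drive fusion of early endosomes, did not share a direction. Rab5a read -1.34, -1.29, -1.85 and -0.77 on the occlusion arrays and -1.02, -1.16, -0.66 and -1.06 on the control arrays, a difference of -0.34 (SE 0.22, limma adjusted p 0.590). Occlusion 3 was the lowest and occlusion 4 lay among the controls, and the difference was -0.16 without the former and -0.52 without the latter. Without the arrays low in habenula markers it was -0.05. Rab5b had 0.04 (SE 0.11). Rab5c was read on 3 arrays of each group after flagged spots were left out, at 3.46, 3.54 and 3.47 against 3.23, 2.88 and 3.45. The difference was 0.30 (SE 0.17) and 0.15 without control 3, and its 2 other probes, read on all arrays, gave 0.27 and 0.33 with overlapping groups. Rab22a, Rab21 and Rab31, which act in endosomal sorting, had 0.19 (SE 0.14), -0.01 (SE 0.11, on 3 occlusion arrays) and -0.08 (SE 0.17). The second Rab22a probe gave -0.13.

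Of the 9 measured genes of recycling and delivery to the plasma membrane, Rab15 was saturated in its brightest probe as described above. Of the other 8, 6 had a higher mean, with differences of at most 0.19. Rab11a and Rab11b, of the recycling endosome, had close values. Rab11a read 2.95, 2.76, 2.81 and 2.57 against 2.51, 2.60, 2.47 and 2.74, a difference of 0.19 (SE 0.12), with 0.07 and 0.08 from its other probes. Rab11b read 0.98, 0.89, 0.93 and 1.12 against 0.80, 0.73, 0.81 and 0.88, a difference of 0.17 (SE 0.10). The Rab11b groups did not overlap but were 0.011 apart. Rab13, known from junctions between epithelial cells, had the lowest difference of this group. Its levels were -0.39, -0.29, -0.27 and -0.43 on the occlusion arrays and -0.24, -0.25, -0.21 and -0.27 on the control arrays. The difference was -0.10 (SE 0.09), and the groups were 0.0072 apart. The exocytic Rabs Rab8a, Rab8b and Rab10 had 0.03, 0.08 and 0.08, with SEs of 0.11, 0.13 and 0.09. The 2 other Rab10 probes gave -0.21 and -0.11. Rab35, of the plasma membrane, had 0.17 (SE 0.13), and Rab12 had -0.07 (SE 0.13).

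Rab38 had the highest moderated statistic of the family. It belongs to the late endosome and lysosome group, where it helps form lysosome-related organelles such as the melanosome. Its levels were -2.23, -2.38, -2.47 and -2.35 on the occlusion arrays and -2.85, -2.74, -2.67 and -2.74 on the control arrays. All occlusion values lay above all control values, with 0.20 between the groups. The difference was 0.39 (SE 0.10, 1.31-fold, limma adjusted p 0.403), 0.45 and 0.34 within the slides, 0.42 without control 3 and 0.47 without the arrays low in habenula markers. A second Rab38 probe gave 0.15 (SE 0.22) with overlapping groups. The other 4 members of this group had differences of -0.11 to 0.05. Rab7, the defining Rab of late endosomes, read 0.74, 1.04, 0.73 and 1.01 against 0.71, 0.93, 0.95 and 0.73, a difference of 0.05 (SE 0.12). Rab9, which returns cargo from late endosomes to the Golgi, read 0.81, 0.70, 0.36 and 0.61 against 0.55, 0.91, 0.77 and 0.60, a difference of -0.09 (SE 0.14). Rab9b had -0.11 (SE 0.21), but -0.45 without the arrays low in habenula markers, and Rab24, linked to autophagy, had 0.01 (SE 0.12).

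Of the 5 Rab genes outside these routes, 4 had a lower mean. Rab40c, a Rab with a SOCS box that joins ubiquitin ligase complexes, read -2.83, -2.74, -2.63 and -2.72 on the occlusion arrays and -2.61, -2.29, -2.11 and -2.58 on the control arrays. The groups were 0.02 apart and the difference was -0.33 (SE 0.14, 1.26-fold lower, limma adjusted p 0.433), -0.14 and -0.53 within the slides. Its second probe gave -0.01. The largest negative mean, -0.58 for the related Rab40b (SE 0.40), rested on control 3. That array read 2.84, the other controls 1.06, 0.97 and 1.05, and the occlusion arrays 0.91, 1.04, 0.93 and 0.72. Without control 3 the difference was -0.13. Rab28, a Rab of cilia, was read on 4 occlusion arrays, at 4.16, 4.30, 4.35 and 4.12, and on 2 control arrays, at 4.46 and 4.37, a difference of -0.18 (SE 0.14). Its other probe, read on all arrays, gave -0.24 (SE 0.12) with overlapping groups. Rab34, also linked to cilia, had -0.14 (SE 0.12), and Rab23, a regulator of hedgehog signalling, read -3.18, -2.94, -3.67 and -3.12 against -3.37, -2.78, -3.56 and -3.25, a difference of 0.01 (SE 0.21). Rab2l, the gene that is no Rab, had -0.03 (SE 0.12).

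**Figure D4:**
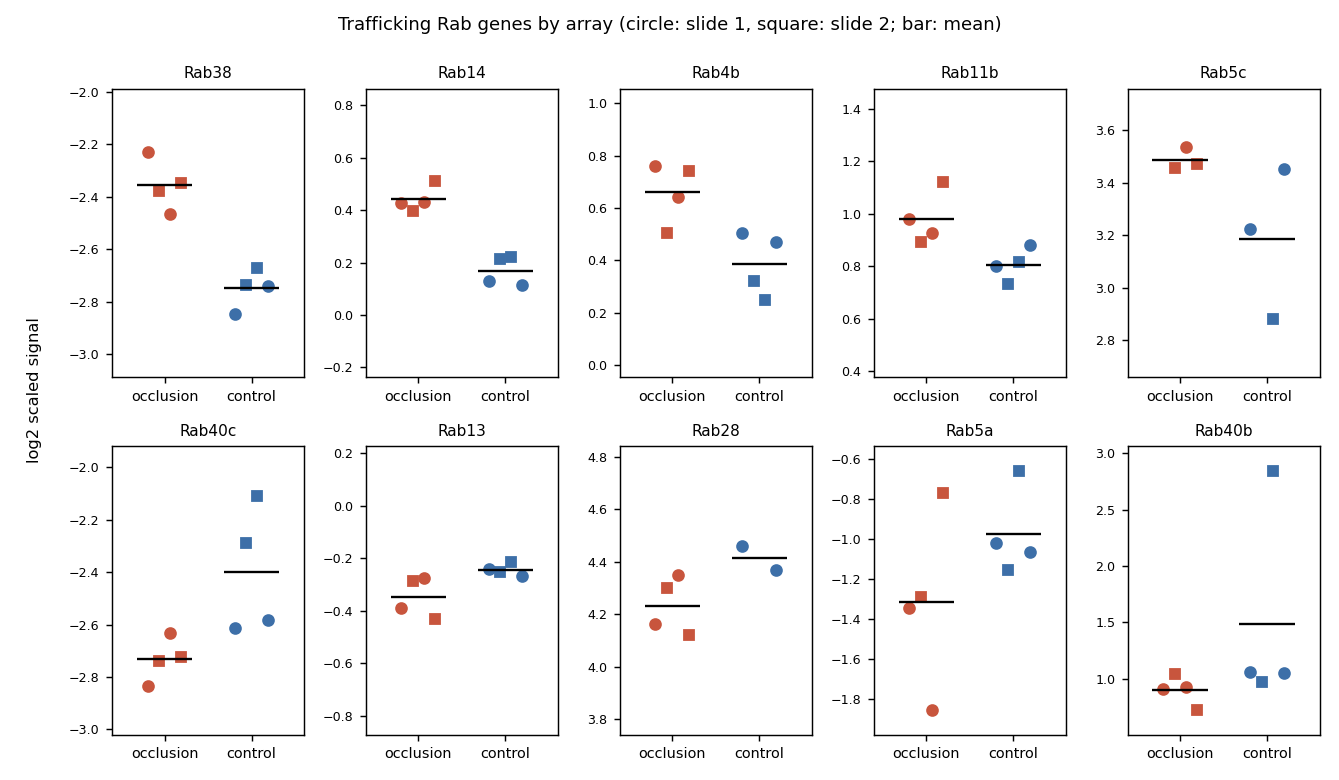
Levels on every array of the 8 Rab genes whose groups do not overlap and of Rab5a and Rab40b, in log2 units relative to the array's 75th percentile, with bars at group means and symbols by slide. Rab38 and Rab14 are separated by 0.20 and 0.17, the other 6 by about 0.02 or less, and the Rab40b mean of the controls is carried by control 3 at 2.84. The vertical scale differs between panels.

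Agreement between probes limits how the single values can be read. Of the 19 genes with several kept probes (45 probes), 15 had all probes on the same side of 0 and 4 did not: Rab2b, Rab10, Rab22a and Rab6a. The 15 include Rab6b and Rab15, whose saturated probes have signs without meaning. The unsaturated Rab6b probes were both higher, and Rab15 has only 1 unsaturated probe. The remaining 27 genes rest on 1 kept probe each.

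The proteins that load, switch and read the Rabs did not pass the test either. Of 123 listed genes 100 were measured, 55 with a higher and 45 with a lower mean, and 0 had an adjusted p under 0.05 (limma). At an unadjusted p under 0.05, 9 were higher and 7 lower, beside the 6.48% and 4.61% of all kept probes. Groups did not overlap for 8 higher and 3 lower, beside 3.9% and 2.82% of all kept probes. The list of GDI, escort and prenylation genes had 6 of 7 higher with a median of 0.08. Rabif, which binds nucleotide-free Rabs, had 0.26 (SE 0.13). Rabggtb, a subunit of the enzyme that attaches the lipid anchor, had 0.00 (SE 0.26), and Chm, a Rab escort protein, had -0.31 (SE 0.28). The Chm value was -0.13 without occlusion 2 or without occlusion 3, and -0.54 without occlusion 4.

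The GEF list had 14 of 28 higher and the GAP list 12 of 21. Rab3ip, a GEF for Rab8, read 0.40, 0.33, -0.08 and 0.20 on the occlusion arrays and -0.12, -0.44, -0.70 and 0.08 on the control arrays, a difference of 0.51 (SE 0.19, limma adjusted p 0.413). The groups overlapped through occlusion 3 and control 4. Mon1a, part of the GEF for Rab7, had 0.30 (SE 0.12) with groups that did not overlap. Dennd2d, of the DENN family of Rab GEFs, was dim and lower, at -5.26, -4.92, -5.39 and -4.71 against -4.08, -3.96, -4.28 and -4.57. Its groups did not overlap, and the difference was -0.85 (SE 0.19, limma adjusted p 0.403), -1.002 and -0.70 within the slides. Dennd2b had -0.34 (SE 0.12), also without overlap. Of the GAPs, Tbc1d25 had 0.34 (SE 0.11) without overlap and Tbc1d30 had 0.54 (SE 0.22), which was 0.34 without control 3. Tbc1d1, known from glucose transporter traffic, had -0.50 (SE 0.17), and Tbc1d5, which acts on retromer-bound endosomes, had -0.21 (SE 0.11).

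The effector list had 23 of 44 higher. Rims2, a Rab3 partner at the release site, read 0.05, 0.04, -0.23 and -0.04 on the occlusion arrays and -0.62, -1.17, -0.95 and -0.28 on the control arrays. The groups did not overlap, with 0.36 and 1.06 within the slides, and the difference was 0.71 (SE 0.19, limma adjusted p 0.403). Rims1, named here after its values were seen because it is the paralog of Rims2, read -1.71, -2.08, -2.20 and -1.95 against -2.34, -2.92, -3.12 and -2.27, a difference of 0.68 (SE 0.22, limma adjusted p 0.403). Other listed effectors that bind Rab3 or resemble these genes, also named after their values were seen, did not share a direction. Rph3a and Rims3 had 0.87 (SE 0.38) and 0.76 (SE 0.35) with overlapping groups, Rims4 had 0.10 (SE 0.22), Sytl4 had -0.15 (SE 0.25) and Rph3al had -0.42 (SE 0.17), with limma adjusted p-values of 0.426 to 0.907. In Rims1 and Rims2, control 4 was the control array nearest the occlusion values, as for Rab3a, Rab3c and Rab6b probe 2. Appl1, a Rab5 effector on early endosomes, read -0.23, -0.02, -0.08 and -0.02 against -0.48, -0.35, -0.59 and -0.45, without overlap. Its difference was 0.38 (SE 0.10, limma adjusted p 0.403), and its 3 kept probes gave 0.10 to 0.38. Exoc6b, of the exocyst tether, had -0.29 (SE 0.11). Sytl5, a Rab27 effector, read -5.39, -4.84, -3.60 and -4.71 against -3.72, -3.81, -3.33 and -3.72, a difference of -0.99 (SE 0.34, limma adjusted p 0.403). Occlusion 3 was the array within the control range, as for Rab26 and the sum of the inhibitory neuron markers, though not for each of those markers.

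**Figure D5:**
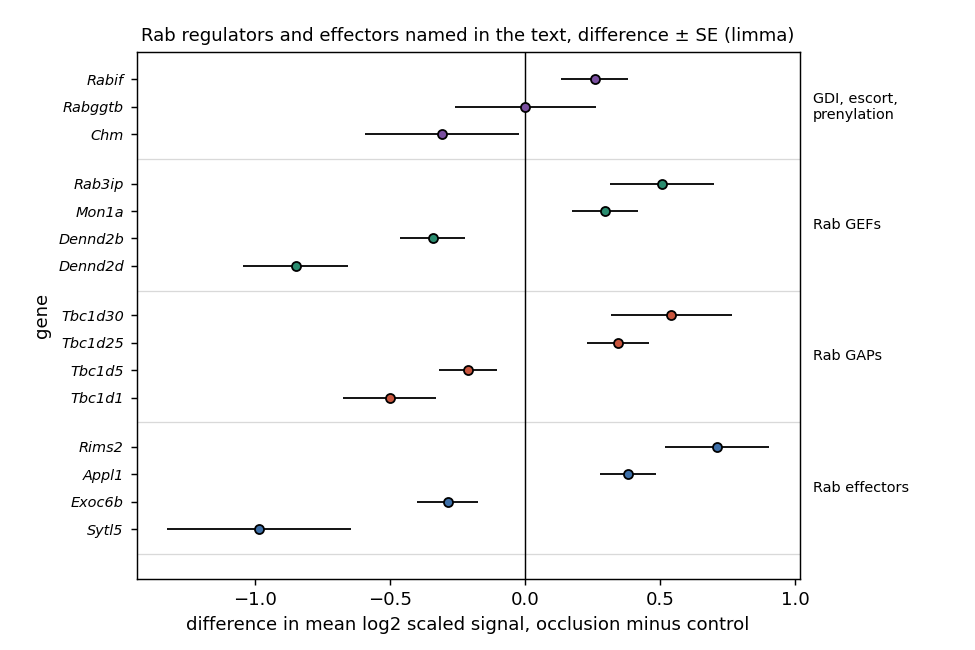
Mean log2 difference, occlusion minus control, with its standard error from limma, for the regulator and effector genes named from each list by the highest and lowest moderated statistics. Values run from -0.99 for Sytl5 to 0.71 for Rims2, and none has an adjusted p under 0.05.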

How the data were processed

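Medial thalamus RNA of 4 occlusion and 4 control rats (1 µg per array) was measured on single-colour Agilent arrays, 1 per animal. The intensity values are the deposited scanner signals, already background-subtracted by Agilent Feature Extraction 9.5.1.1 per the file headers. The series text names a reference design, yet each array was scanned in 1 channel per the file headers. The design text speaks of 4 animals a group, and replicates were taken as separate animals.

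Log2 signals were centred on each array's 75th percentile over non-control spots, outlier-flagged spots were left out, spots of a probe were averaged, and saturated spots were kept. Probes well above background on 4 of 8 arrays, with at least 2 values a group, were fitted with limma 3.58.1 (R 4.3.3; two-sided, Benjamini-Hochberg over all 27152 probes), after the code was tested on simulated data. Per-array values are given for the 5 highest and 5 lowest Rab genes by moderated statistic, the extremes of each role group, and the main secretory, Rab5a, Rab7 and Rab11 genes, and up to 4 genes are named per regulator list; 1 further gene is not reported here. Per-array values of Rab5c, Rab28 and the unsaturated Rab6b and Rab15 probes were added after they were seen. Members, lists and role groups were chosen with earlier results of these data known. The arrays shared replicate numbers without a stated pairing. Alternatives covered scaling, background, filters, slide, flagged and saturated spots, probe choice, the deposited table and leaving out arrays. Names were updated through RefSeq (GRCr8), and of 41012 probes 17604 had no gene symbol.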

Additional observations from a re-analysis of the deposited data

Results flagged for a closer look

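In each group of 4 arrays, the gap between the most extreme array and its nearest neighbour was divided by the group's range, for 87 groups of Rab gene levels. Chance exceeds Dixon's critical value in about 1 of 20 such groups, and 2 did. Rab40b on control 3 read 2.84, against 1.06 on the next control array (a gap of 0.951 of the range). Rab35 on occlusion 1 read -1.83, against -1.69 on the next occlusion array, a gap of 0.8293 of the range. The Rab35 gap is 0.13 on the log2 scale.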

How the results depend on the processing

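With 4 arrays a group, the counts at an unadjusted p under 0.05 and of groups without overlap depended on the settings, while 22 (quantile normalization) to 27 of 45 to 47 Rab genes were higher in the settings run, and the median log2 difference of the Rab genes was -0.0067 (quantile normalization) to 0.055. Probes with an adjusted p under 0.05 were 0 except with normexp background (1, a probe with no gene symbol). Rab genes higher at an unadjusted p under 0.05 (4) were 2 with the replicate block, on slide 1 and without the 3 arrays low in habenula markers, and 1 on slide 2. Those lower (1) were 0 with median scaling, normexp, quantile normalization, the percentile over unflagged spots and slide 1, 2 with outlier spots kept and 3 on slide 2. Genes without overlap, higher (5) and lower (3), were 2 and 1 with normexp, 3 and 0 with quantile normalization, 15 and 9 on slide 1, 11 and 8 on slide 2, and 12 and 8 without the 3 arrays low in habenula markers. Overlap is rarer with the fewer arrays of the last 3 settings, where 26.5% and 14.6%, 21.5% and 21.1%, and 14.7% and 15.8% of all kept probes did not overlap. The higher count was 3 in the deposited table and 2 with the percentile over unflagged spots. Leaving out 1 array gave 2 to 7 higher (2 without control 2, control 3 or occlusion 1, 7 without control 4) and 0 to 2 lower (0 without control 2, control 3, occlusion 1 or occlusion 2, and 2 without occlusion 3) at an unadjusted p under 0.05, and 5 to 9 higher (9 without control 4, 8 without occlusion 4) and 2 to 5 lower (5 without control 2) without overlap. The share of all kept probes moved too: at an unadjusted p under 0.05 it was 14.6% without control 4 and 13.6% without occlusion 4, and 7.53 to 7.84% without control 2, control 3 or occlusion 1, against 11.1% with all arrays. Of all kept probes, 9.16% higher and 7.05% lower did not overlap without control 4. These shares were 9.54% and 5.71% without occlusion 4, and 5.03% and 3.78% without control 2, against 3.9% and 2.82% with all arrays. For same-numbered arrays, deviations from the group means correlated at 0.355, 0.514, -0.0715 and -0.293 across probes, for numbers 1 to 4. Arrays numbered 1 and 2 shared a slide with their namesake and those numbered 3 and 4 did not, so these values mix number with slide. The numbers were not taken as a pairing, and the replicate block changed no other count of Rab genes by over 1.5 times.

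Leaving out 1 array moved the difference of 37 of the 46 Rab genes by over 1.5 times in at least 1 case; the other 9 were Rab38, Rab14, Rab4b, Rab2b, Rab11a, Rab11b, Rab13, Rab26 and Rab40c. Rab35 ran from 0.072 to 0.27, Rab12 from -0.14 to -0.0034 and Rab9b from -0.27 to -0.00083. Of 71 genes and probes, 45 kept their sign in every setting run. Signs of the saturated Rab6b and Rab15 probes have no meaning, and their unsaturated probes kept theirs. Where the probe that stands for a gene dropped out of a setting, the next brightest took its place. Values that changed sign were, with slide 1 alone, Rab35 -0.016, Rab33b -0.36, Rab8a -0.012, Rab23 -0.11, Rab24 -0.012, Rab3b 0.22, Rab43 0.41, Rab9 0.0047 and Rabggtb -0.13. The Rab8a value on slide 1 came from such a second probe, which gave 0.02 on all arrays. With slide 2 alone they were the saturated Rab15 -0.023 and Rab6b -0.047, Rab27a -0.14, Rab21 0.016, Rab27b 0.082, Rab2l 0.028, Rab39 0.15, Rims4 -0.040, Sytl4 0.23 and Rab1 0.073. Without the 3 arrays low in habenula markers they were Rab6b -0.0021, Rab27a -0.037, Rab2 -0.036, Rab5b -0.078, Rab23 -0.0021, Rab24 -0.075, Rab3b 0.32, Rab31 0.17, Rab12 0.011, Rab6a 0.019 and Rabggtb -0.10. Quantile normalization gave Rab6b -0.011, Rab8a -0.0029, Rab24 -0.024 and Rabggtb -0.12, and normexp gave Rab5b -0.0019, Rab21 0.0032 and Rabggtb -0.024. Rab21 was 0.00079 with median scaling, 0.036 with outlier spots kept and 0.0078 with the replicate block. Rabggtb was -0.0021 in the deposited table, and Rab10 was -0.078 as the mean of its probes. Leaving out 1 array moved Rab23 from -0.091 to 0.17, Rab24 from -0.059 to 0.057, Rab21 from -0.063 to 0.027, Rab27b from -0.33 to 0.10, Rab2l from -0.082 to 0.037, Rabggtb from -0.17 to 0.21, Rab3b from -0.34 to 0.26, Rab43 from -0.23 to 0.023, Rab5b from -0.0029 to 0.092, Rab31 from -0.21 to 0.027, Rab27a from -0.029 to 0.35, Rab7 from -0.0022 to 0.10, Rab9 from -0.15 to 0.00020, Rab33b from -0.088 to 0.39, Rims4 from -0.12 to 0.20, Sytl4 from -0.35 to 0.043 and Rab8a from -0.029 to 0.074. The cause of these shifts was not tested. The percentile over unflagged spots, the fit without Rab2l and the fit without the 3 arrays low in habenula markers were chosen after seeing the data.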
